A study of Mus musculus with 6 samples.

Results

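Nuclear receptors are transcription factors, most of them switched by fat-soluble ligands, while orphan receptors have no settled ligand or work without one. They bind DNA at short repeats of a hexamer, many as dimers with a retinoid X receptor. Coactivators such as the NCOA proteins and PGC-1 raise transcription at the bound receptor, and corepressors such as NCOR1 lower it. In liver these proteins govern fatty acid oxidation, bile acid and cholesterol handling, drug metabolism, gluconeogenesis and hepatocyte identity.

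Transcripts of 41 nuclear receptor and coregulator genes, picked by symbol from a set list, were followed among 28450 genes listed for liver RNA. All 41 were found, and they comprise 17 metabolic receptors, 3 steroid receptors, 15 orphan receptors and 6 coregulators. The livers came from 3 male Acsm3 knockout mice and 3 male wild-type control mice, all 12 weeks old and on a normal diet. Acsm3 encodes a medium-chain acyl-CoA synthetase of mitochondria. The sources used here do not say how the allele was made or whether other tissues lost the gene. Values are FPKM, fragments per kilobase of transcript scaled to the size of the library, from mRNA-enriched libraries, 1 per mouse. The comparison asks how hepatic transcripts differ between the genotypes.

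Acsm3 was at 0.668, 2.92 and 1.08 FPKM in knockout livers, against 33.2, 34.4 and 32.2 FPKM in control livers, so the libraries matched their labels. The steps between low FPKM values implied 15352700 to 16095400 fragments per knockout library and 15634400 to 16264300 fragments per control library. On the first principal component of all tested genes (56.1% of the variance), knockout 3 scored -10.15, knockouts 1 and 2 scored -24.58 and -27.73, and controls scored 17.25 to 25.88, so knockout 3 lay nearest to the controls. Fold changes below are differences in log2(FPKM + 1), knockout minus control, ± SE, from 3 mice per genotype, a scale that understates changes of low genes. A gene was said to rise or fall in knockout livers where its limma p, adjusted over the 10996 genes that averaged 1 FPKM or more across the livers, was under 0.05. Of those genes 13.9% rose and 2.61% fell.

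Of the tested receptor and coregulator genes 4 were called (11.4%), against 16.5% of all tested genes. Of the 41 genes 35 passed the filter, and 2 of these rose (5.71%, against 13.9% of all tested genes) and 2 fell (5.71%, against 2.61%). Hnf4a, an orphan receptor central to hepatocyte identity, and Ncoa3, a coactivator, rose. Nr1i3, the xenobiotic receptor CAR, and Esrra, an orphan receptor of mitochondrial genes, fell. Knockout values lay wholly above control values in 9 of the 35 (25.7%, against 33.9% of all tested genes) and wholly below in 5 (14.3%, against 7.91%), so 14 (40%) did not overlap, against 41.8% of all tested genes. An unadjusted p under 0.05 was found for 12 of the 35 (34.3%) and for 35.3% of all tested genes. These 12 and the 9 that lay above include Nr6a1, which passed the filter only through knockout values. The median fold change of the 35 was -0.02, and that of all tested genes was 0.13. Rescaling the libraries by median ratios moved the median of all genes from that value to -0.001, and then 0 of the 35 were called higher and 5 lower, against 7.57% and 6.7% of all tested genes. Limma called 0 higher without knockout 1, control 2 or control 3, 1 higher without knockout 2 or control 1, 4 higher without knockout 3. It called 0 lower without knockout 2, control 2 or control 3, 1 lower without knockout 1 or control 1, 2 lower without knockout 3. Calls over all 10838 to 11099 genes tested in these fits moved too, from 1532 higher and 287 lower with all mice. They were 402 and 110 without knockout 1, 248 and 56 without knockout 2, and 1968 and 282 without knockout 3. Without control 1 they were 543 and 98, without control 2 270 and 55, and without control 3 226 and 61. Voom on recovered fragments called 3 higher and 3 lower, against 16.5% and 2.87%.

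**Figure D1:**
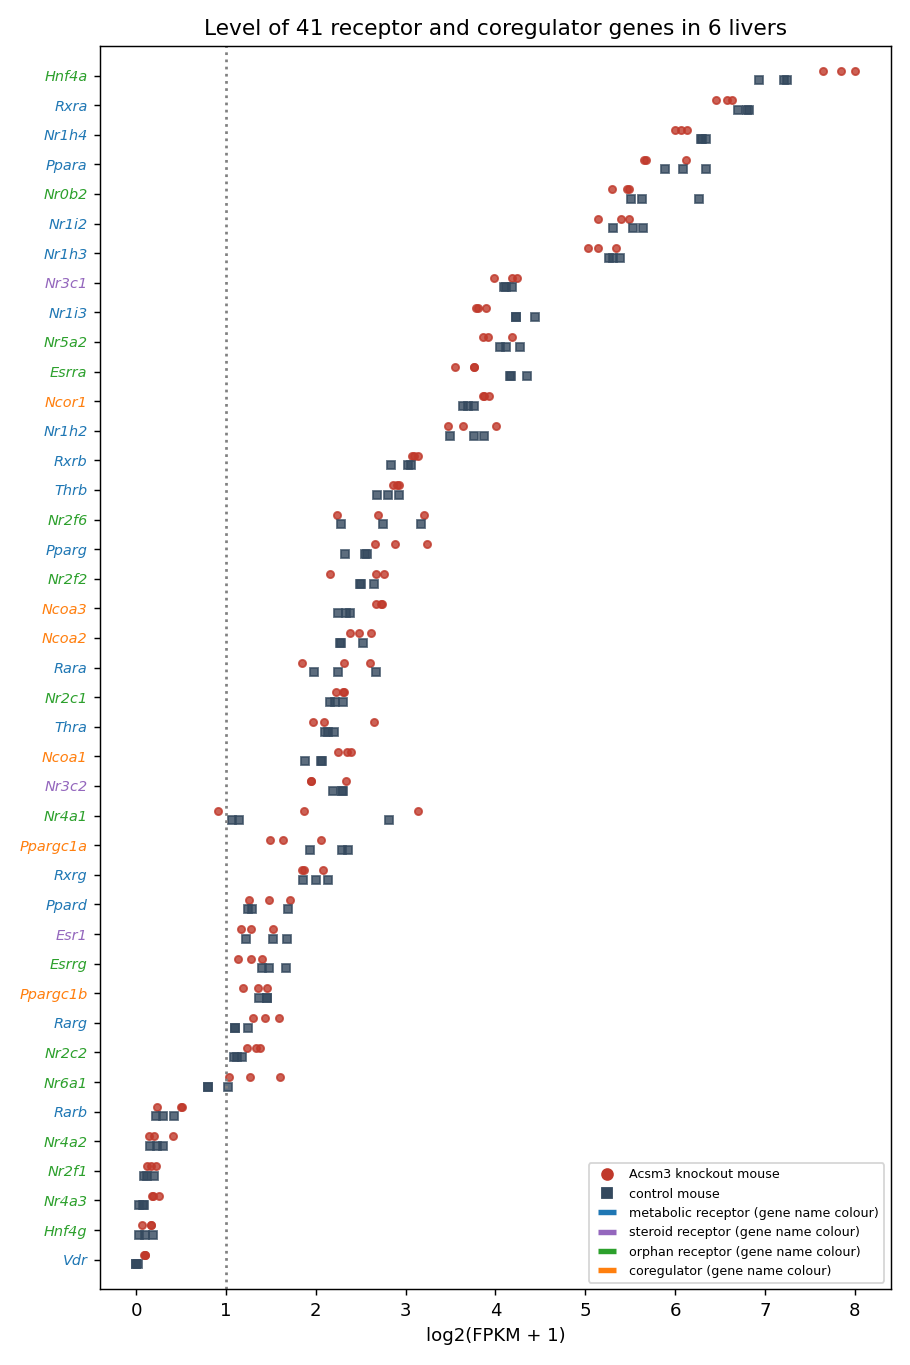
Level of each of the 41 genes as log2(FPKM + 1), with 1 point per mouse (red circles, Acsm3 knockout; dark squares, control), ordered by the mean of 6 mice and with gene names coloured by class. Hnf4a stands highest with its knockout points to the right of its control points, the 6 untested genes crowd near 0, and the dotted line marks 1 FPKM.

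Levels differed widely between the genes. The highest means over the 6 livers were those of Hnf4a (184 FPKM), Rxra (101 FPKM), Nr1h4 (72.1 FPKM), Ppara (62.2 FPKM), Nr0b2 (49.0 FPKM), Nr1i2 (42.0 FPKM) and Nr1h3 (37.0 FPKM), and these receptors are known for roles in hepatocytes. Neighbours in this order were not always separated, since Nr1h4 ranged from 62.8 to 80.0 FPKM and Ppara from 49.1 to 80.4 FPKM over all mice. The lowest means were those of the untested genes, namely Vdr (0.0357 FPKM), Hnf4g (0.0875 FPKM), Nr4a3 (0.101 FPKM), Nr2f1 (0.111 FPKM), Nr4a2 (0.182 FPKM) and Rarb (0.290 FPKM). The coregulators ran from 1.61 FPKM (Ppargc1b) to 12.9 FPKM (Ncor1).

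Among the metabolic receptors, 15 of 17 were tested and 0 rose and 1 fell (6.67%), against 13.9% and 2.61% of all tested genes. The gene that fell was Nr1i3, which encodes CAR, a sensor of drugs and other foreign compounds that drives detoxifying enzymes. It was at 12.9, 13.8 and 12.8 FPKM in knockout livers, against 20.7, 17.8 and 17.7 FPKM in control livers. All knockout values lay below all control values, and control 1 was the highest. The fold change was -0.47 ± 0.08 (limma, adjusted p = 0.0194), and the knockout mean was 0.704 times the control mean. The call ended in limma fits without knockout 1 (0.0616), knockout 2 (0.0594), control 2 (0.0574) or control 3 (0.0572), with adjusted p in parentheses. Nr1i3 (ENSMUSG00000005677) lies at chr1:171213970-171220701 on the plus strand of GRCm38. On the opposite strand Tomm40l, a gene of mitochondrial protein import, covers 3304 of Nr1i3's 4414 exonic bases, and without known strandedness their fragments cannot be told apart there. Tomm40l was at 2.86, 2.60 and 2.02 FPKM in knockout livers, against 3.03, 3.76 and 3.19 FPKM in control livers (fold change -0.31 ± 0.12, limma adjusted p = 0.118). The groups did not overlap, and it was called lower after median-ratio rescaling (0.0416), quantile normalization (0.0258) and removal of the length trend (0.0348).

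Nr1h4, the bile acid receptor FXR, missed the threshold narrowly. It was at 69.0, 65.9 and 62.8 FPKM in knockout livers, against 77.6, 77.3 and 80.0 FPKM in control livers. The groups did not overlap, and each varied little. The fold change was -0.25 ± 0.07 (limma, adjusted p = 0.0518), and it passed after median-ratio rescaling (0.0206), with the trend on exon length removed (0.0379), with a filter at 5 FPKM (0.0478) and with voom on recovered fragments (0.0431). It was called in 4 of 18 alternatives and in 0 of the 6 fits without 1 mouse (adjusted p from 0.0906 to 0.145). Rxra, the main hepatic dimer partner of the metabolic receptors, was at 94.3, 97.9 and 87.0 FPKM in knockout livers, against 112, 103 and 110.3 FPKM in control livers. Every knockout value was below every control value. Its fold change of -0.22 ± 0.08 was not called (limma, adjusted p = 0.0918), but it passed after median-ratio rescaling (0.0264) and with the length trend removed (0.0262). It was called in 2 of 18 alternatives and in 0 of the 6 fits without 1 mouse (adjusted p from 0.133 to 0.201).

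Pparg, which drives fat storage in adipocytes and is scarce in lean liver, was at 8.46, 6.40 and 5.34 FPKM in knockout livers, against 3.999, 4.92 and 4.83 FPKM in control livers. The knockout values all lay above the control values, with knockout 1 highest and knockout 3 closest to the controls. The fold change was 0.45 ± 0.16 (limma, adjusted p = 0.0883), and of 18 alternatives only the fit without knockout 3 called it (0.0373). Ppara, the fasting-activated receptor of fatty acid oxidation, was at 49.9, 68.7 and 49.1 FPKM in knockout livers, against 58.0, 67.2 and 80.4 FPKM in control livers. These values overlapped (fold change -0.29 ± 0.17, limma adjusted p = 0.257). Ppard, a broadly expressed relative, was at 1.82 ± 0.450 FPKM in knockout and 1.68 ± 0.480 FPKM in control livers (SD, n = 3 each, limma adjusted p = 0.781).

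The oxysterol sensors of the LXR family were not called. Nr1h3 (LXR-alpha) was at 39.5, 34.4 and 31.7 FPKM in knockout livers, against 40.8, 38.5 and 37.3 FPKM in control livers, and knockout 1 lay among the controls. Its fold change was -0.15 ± 0.10 (limma, adjusted p = 0.317, and 0.0387 after median-ratio rescaling). Nr1h2 (LXR-beta) was at 12.2 ± 2.57 FPKM in knockout and 12.2 ± 1.73 FPKM in control livers (SD, n = 3 each), and the 95% interval of its fold change ran from -0.39 to 0.38. Nr1i2, the xenobiotic receptor PXR, was at 39.8 ± 4.88 FPKM in knockout and 44.2 ± 5.29 FPKM in control livers (SD, n = 3 each, limma adjusted p = 0.441). Among all 8 sensors of lipids, bile acids and foreign compounds, 0 rose and 1 fell (12.5%), with a median of -0.15. Of all tested genes 13.9% rose and 2.61% fell.

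Of the thyroid hormone, retinoic acid and vitamin D receptors 4 of 6 were tested, and limma and voom each called 0 of them. Limma called 16.5% of all tested genes. An unadjusted p under 0.05 was found for 1 (Rarg, 25%), against 35.3% of all tested genes. Thrb, the main thyroid hormone receptor of liver, was at 6.46 ± 0.192 FPKM in knockout and 6.01 ± 0.606 FPKM in control livers (SD, n = 3 each, limma adjusted p = 0.474). Thra was at 5.29, 3.26 and 2.92 FPKM in knockout livers, against 3.29, 3.59 and 3.41 FPKM in control livers, with knockout 1 above all others. Nr1d1, a clock repressor on the opposite strand that covers 263 of Thra's 4614 exonic bases, was at 25.5, 10.3 and 22.2 FPKM in knockout livers, against 14.8, 15.2 and 13.8 FPKM in control livers. Rara, a retinoic acid receptor, ranged from 2.59 to 5.07 FPKM in knockout livers and from 2.93 to 5.35 FPKM in control livers. Rarg, of the same family, was at 2.02, 1.47 and 1.71 FPKM in knockout livers, against 1.36, 1.14 and 1.15 FPKM in control livers. Its groups did not overlap (fold change 0.30 ± 0.11, limma adjusted p = 0.106).

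Vdr, the vitamin D receptor, which hepatocytes barely express, had 6, 6 and 6 fragments in knockout libraries and 1, 0 and 0 in control libraries. Rarb, a retinoic acid receptor of stellate cells, had 35, 14 and 35 fragments in knockout libraries and 14, 28 and 19 in control libraries, and Top2b on the opposite strand covers 1793 of Rarb's 5265 exonic bases. Both lay under the filter and were not tested. Of the 3 RXR genes limma and voom each called 0, and 1 (Rxra) had an unadjusted p under 0.05. Over all tested genes limma called 16.5%, and 35.3% had such a p. Rxrb was at 7.57 ± 0.223 FPKM in knockout and 6.88 ± 0.638 FPKM in control livers, and Rxrg at 2.83 ± 0.357 FPKM in knockout and 3.005 ± 0.386 FPKM in control livers (SD, n = 3 each, limma adjusted p = 0.326 and 0.717).

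The steroid receptors were not called. Limma and voom each called 0 of 3, and 0 had an unadjusted p under 0.05. Over all tested genes limma called 16.5%, and 35.3% had such a p. Nr3c1, the glucocorticoid receptor, was at 17.96, 14.8 and 17.2 FPKM in knockout livers, against 17.2, 16.4 and 16.1 FPKM in control livers. The groups overlapped, and the 95% interval of the fold change ran from -0.20 to 0.21. Nr3c2, the mineralocorticoid receptor, was at 3.25 ± 0.690 FPKM in knockout and 3.79 ± 0.197 FPKM in control livers (SD, n = 3 each, limma adjusted p = 0.327). Esr1, the oestrogen receptor alpha, was at 1.51 ± 0.317 FPKM in knockout and 1.80 ± 0.438 FPKM in control livers (SD, n = 3 each, limma adjusted p = 0.512).

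Of the orphan receptors 11 of 15 were tested, and 1 rose (9.09%) and 1 fell (9.09%), against 13.9% and 2.61% of all tested genes. Hnf4a, required for many liver-specific genes, was at 229, 199.6 and 254 FPKM in knockout livers, against 147, 121 and 151 FPKM in control livers. The lowest knockout value was above the highest control value. The fold change was 0.70 ± 0.12 (limma, adjusted p = 0.0194), and the knockout mean was 1.63 times the control mean. After median-ratio rescaling the fold change was 0.54 (adjusted p = 0.0524), and with the length trend removed it was 0.55 (0.0510), neither of them called. The call also ended with no filter (0.0508) and in limma fits without knockout 1 (0.0616), control 2 (0.0589) or control 3 (0.0558).

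Hnf4a (ENSMUSG00000017950) lies at chr2:163506808-163572910 on the plus strand of GRCm38. RefSeq places starts of the gene at an upstream and a downstream promoter, and the downstream one is known as the main promoter in adult liver. Gene-level FPKM sum the transcripts of both. The 250 bases before each start are shown, as RefSeq gives them on GRCm38.p6, because Hnf4a was the most abundant of these receptors and rose; they were chosen after the values were seen. The upstream window is chr2:163506607-163506856 and the downstream window chr2:163546905-163547154, both on the plus strand. Capitals mark the letters GTTAAT on either strand (ATTAAC as printed), part of the motif of HNF1 factors, which act with HNF4-alpha in hepatocytes.
Hnf4a upstream promoter: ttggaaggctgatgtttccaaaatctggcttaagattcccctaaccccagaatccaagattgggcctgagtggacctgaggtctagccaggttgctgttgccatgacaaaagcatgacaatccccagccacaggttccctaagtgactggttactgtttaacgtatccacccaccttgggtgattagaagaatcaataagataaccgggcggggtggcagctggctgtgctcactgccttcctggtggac
Hnf4a downstream promoter: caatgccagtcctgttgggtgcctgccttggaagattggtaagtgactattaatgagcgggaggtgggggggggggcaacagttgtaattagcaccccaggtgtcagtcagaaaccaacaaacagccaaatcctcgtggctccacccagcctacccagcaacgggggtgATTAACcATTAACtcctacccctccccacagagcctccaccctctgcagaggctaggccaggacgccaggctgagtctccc

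The downstream window held GTTAAT at 2 places, both on the minus strand, and the upstream window at 0. Of 32851 promoter windows of this length, 6.43% held it. So did 5 of 55 windows of the receptor and coregulator genes, of which 35 of all 41 were found in RefSeq's table. These 35 are not the 35 tested genes, and for Ncoa3 no window was searched. AGGTCA, the hexamer bound by many nuclear receptors, stood on either strand in 14% of all windows and in 9 of these 55 (16.4%), but in none of the windows of Hnf4a, Nr1i3 and Esrra. A direct repeat of AGGTCA with any 1 base between the copies and the longer TNAAGGTCA, which both overlap AGGTCA, were each in 0 of the 55, against 0.0335% and 1.14% of all windows. These are matches of letters, and no binding was measured.

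Hnf4aos, an antisense transcript, overlaps Hnf4a over 34913 bases of their spans and 0 exonic bases. It was at 2.96, 3.70 and 3.50 FPKM in knockout livers, against 6.61, 4.37 and 5.14 FPKM in control livers, without overlap. It fell (fold change -0.53 ± 0.14, limma adjusted p = 0.0487), but the call ended in limma fits without knockout 1 (0.129), knockout 2 (0.107), knockout 3 (0.0708), control 1 (0.0929), control 2 (0.0640) or control 3 (0.118), and with voom (0.0783). Hnf4g, the paralog of Hnf4a in gut and kidney, had 5, 2 and 5 fragments in knockout libraries and 6, 3 and 1 in control libraries and was not tested.

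Esrra encodes ERR-alpha, which works with PGC-1 on mitochondrial genes. It was at 12.6, 12.5 and 10.7 FPKM in knockout livers, against 19.4, 17.0 and 16.8 FPKM in control livers. The highest knockout value was under the lowest control value. The fold change was -0.54 ± 0.09 (limma, adjusted p = 0.0194), and the knockout mean was 0.673 times the control mean. The call ended in limma fits without knockout 2 (0.0591), control 1 (0.0512), control 2 (0.0593) or control 3 (0.0573). Esrra (ENSMUSG00000024955) lies at chr19:6910977-6921813 on the minus strand, and Trmt112 covers 73 of Esrra's 4387 exonic bases. Its relative Esrrg was at 1.19, 1.42 and 1.64 FPKM in knockout livers, against 2.19, 1.79 and 1.64 FPKM in control livers, and the groups met at mouse 3 of each genotype (limma, adjusted p = 0.183).

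Nr0b2 encodes SHP, which lacks a DNA-binding domain and represses bile acid synthesis downstream of FXR. It was at 43.9, 43.2 and 38.2 FPKM in knockout livers, against 75.9, 48.4 and 44.6 FPKM in control livers. All knockout values lay below the control values, and control 1 stood far above the other controls. The fold change of -0.39 ± 0.20 was not called (limma, adjusted p = 0.207). Nr5a2, the bile acid and cholesterol regulator LRH-1, was at 15.0 ± 1.97 FPKM in knockout and 16.8 ± 1.41 FPKM in control livers (SD, n = 3 each, limma adjusted p = 0.340).

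Nr4a1, an immediate-early receptor induced by many signals, had the widest interval of all 35. It was at 7.79, 2.66 and 0.881 FPKM in knockout livers, against 6.05, 1.10 and 1.22 FPKM in control livers. Mouse 1 was highest in both genotypes, and the 95% interval of the fold change ran from -1.28 to 1.88. Its relative Nr4a2 had 21, 9 and 7 fragments in knockout libraries and 15, 11 and 7 in control libraries. Nr4a3 had 18, 13 and 13 fragments in knockout libraries and 6, 5 and 2 in control libraries, without overlap, and neither passed the filter. Of 8 tested immediate-early genes outside the family, 1 rose (12.5%) and 0 fell, namely the stress-induced factor Atf3 (fold change 1.58 ± 0.24), a share near the 13.9% of all tested genes that rose.

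Nr2f2 (COUP-TFII), known from venous endothelium and stellate cells, was at 4.86 ± 1.23 FPKM in knockout and 4.84 ± 0.347 FPKM in control livers (SD, n = 3 each, limma adjusted p = 0.954). Nr2f6, of the same family, was at 8.24, 5.45 and 3.71 FPKM in knockout livers, against 7.98, 5.74 and 3.86 FPKM in control livers. Same-numbered mice of both genotypes had close values, and within each genotype the highest value was 2.22 times (knockout) and 2.07 times (control) the lowest. Ocel1 on the opposite strand covers 1622 of Nr2f6's 2983 exonic bases. Nr2f1 (COUP-TFI) had 13, 7 and 10 fragments in knockout libraries and 12, 7 and 5 in control libraries and was not tested.

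The testicular receptors, orphan receptors named for the tissue they were found in, were not called. Nr2c1 was at 3.85 ± 0.153 FPKM in knockout and 3.68 ± 0.252 FPKM in control livers, and Nr2c2 at 1.49 ± 0.130 FPKM in knockout and 1.19 ± 0.0695 FPKM in control livers (SD, n = 3 each, limma adjusted p = 0.665 and 0.202). Mrps25 on the opposite strand covers 4590 of Nr2c2's 14935 exonic bases. Nr6a1, a receptor known from germ cells, was at 1.41, 1.04 and 2.03 FPKM in knockout livers, against 1.03, 0.741 and 0.747 FPKM in control livers. Knockout 2 and control 1 nearly met, and the groups did not overlap (fold change 0.42 ± 0.16, limma adjusted p = 0.117). The mean of Nr6a1 was 1.49 FPKM in knockout and 0.839 FPKM in control livers, so it passed the filter only through knockout values.

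**Figure D2:**
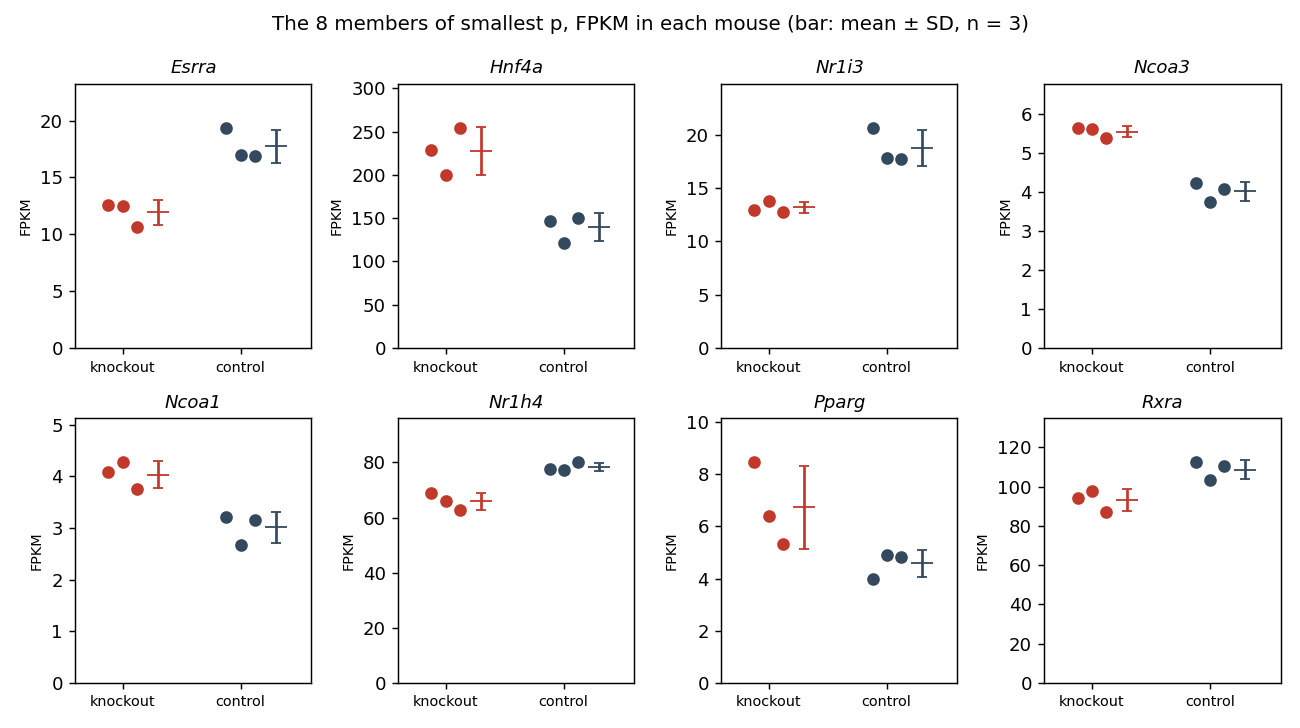
FPKM in each mouse of the 8 genes with the smallest p, with points for mice (red, Acsm3 knockout; dark, control) and mean ± SD beside them (n = 3), each panel on its own axis from 0. The points of the genotypes do not overlap in any of the 8, which were picked by p, and 41.8% of all tested genes did not overlap. Esrra, Hnf4a, Nr1i3 and Ncoa3 passed the adjusted threshold, and the other panels did not.

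Of the 6 coregulators 1 rose (16.7%, near the 13.9% of all tested genes) and 0 fell (against 2.61%). Ncoa3 encodes SRC-3, a coactivator of many receptors. It was at 5.64, 5.61 and 5.38 FPKM in knockout livers, against 4.22, 3.75 and 4.06 FPKM in control livers. The knockout values were close together and all above the control values. The fold change was 0.39 ± 0.07 (limma, adjusted p = 0.0221), and the knockout mean was 1.38 times the control mean. The call ended after median-ratio rescaling (0.0573), quantile normalization (0.0907), removal of the length trend (0.0852) and with no filter (0.0510), and in limma fits without knockout 1 (0.0663), knockout 2 (0.0851), control 1 (0.0501), control 2 (0.0797) or control 3 (0.0709). Ncoa3 (ENSMUSG00000027678) lies at chr2:165992636-166073242 on the plus strand. Sulf2, a sulfatase gene that rose (0.68 ± 0.10), covers 154 of Ncoa3's 7895 exonic bases on the opposite strand.

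Ncoa1 (SRC-1) was at 4.09, 4.27 and 3.75 FPKM in knockout livers, against 3.21, 2.67 and 3.15 FPKM in control livers. The groups did not overlap, and the fold change of 0.33 ± 0.09 lay at the threshold (limma, adjusted p = 0.0502). It passed with voom (0.0336) and missed after median-ratio rescaling (0.150), and was called in 4 of 17 alternatives and in 1 of the 6 fits without 1 mouse (adjusted p from 0.0445 to 0.158). Ncoa2 (SRC-2) was at 4.64 ± 0.461 FPKM in knockout and 4.14 ± 0.526 FPKM in control livers (SD, n = 3 each, limma adjusted p = 0.391). Ncor1, the corepressor, was at 14.2, 13.6 and 13.6 FPKM in knockout livers, against 11.9, 11.4 and 12.5 FPKM in control livers. Its groups did not overlap (fold change 0.19 ± 0.07, limma adjusted p = 0.0947), and of 18 alternatives only the common sum called it (0.28, adjusted p = 0.0455). With the length trend removed its fold change was 0.00.

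Ppargc1a encodes PGC-1 alpha, a fasting-induced coactivator of mitochondrial and gluconeogenic genes. It was at 2.10, 3.17 and 1.82 FPKM in knockout livers, against 2.83, 4.11 and 3.91 FPKM in control livers. Knockout 2 lay above control 1, so the groups overlapped, and the fold change of -0.47 ± 0.18 was not called (limma, adjusted p = 0.115, 0.0567 to 0.282 over its alternatives). Ppargc1b, its relative, was at 1.53 ± 0.234 FPKM in knockout and 1.70 ± 0.0973 FPKM in control livers (SD, n = 3 each, limma adjusted p = 0.557).

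**Figure D3:**
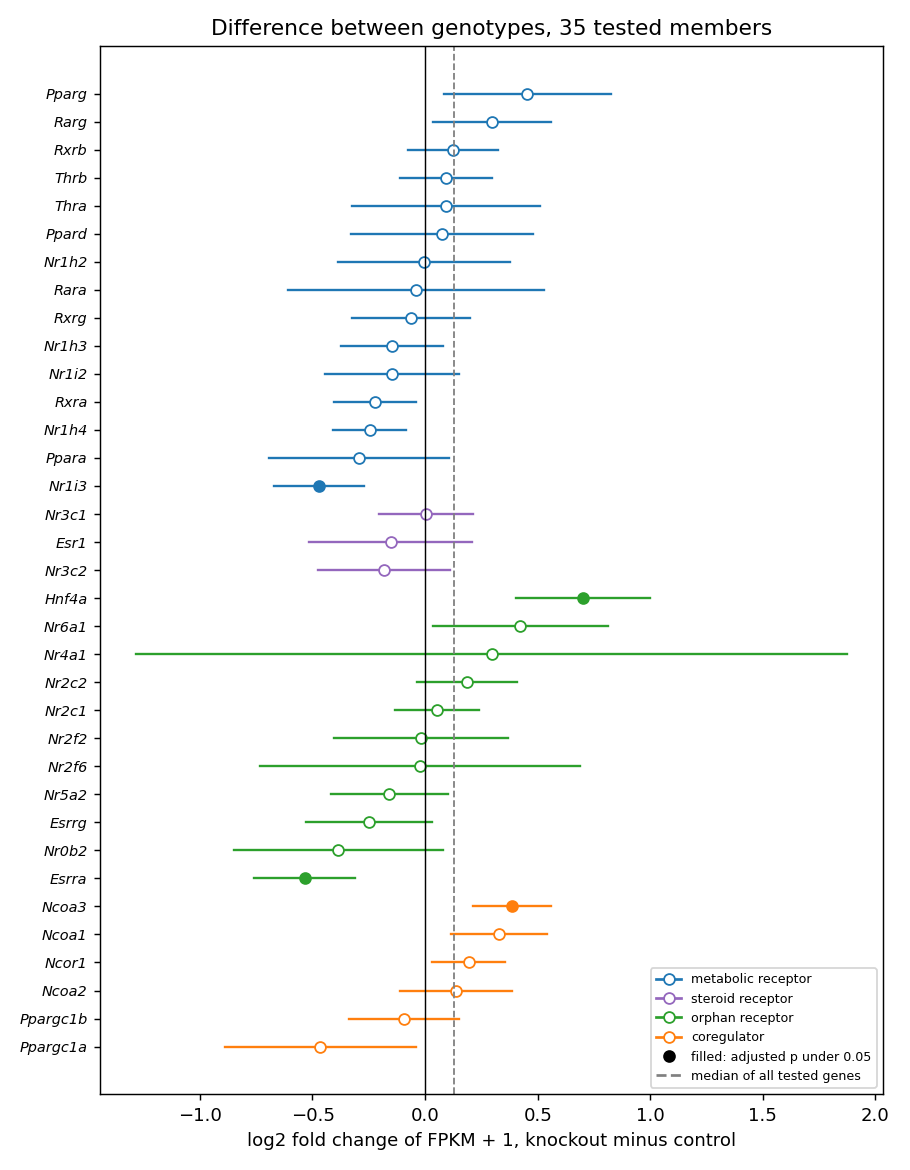
Difference in log2(FPKM + 1), knockout minus control, of the 35 tested genes with its 95% interval, coloured by class; filled points passed an adjusted p of 0.05 by limma, and the dashed line is the median of all tested genes (0.13). Hnf4a and Ncoa3 are filled to the right of 0, Nr1i3 and Esrra to the left, and Nr4a1 has the widest interval.

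Exon length moved with the difference between genotypes. The median fold change was 0.02 in the shortest of 5 equal bins of tested genes (median 1109 exonic bases) and 0.18 in the longest (median 9288). The 35 receptor and coregulator genes had a median of 4614 exonic bases, against 3934 for all tested genes. With the trend on length removed, 0 were called higher and 4 lower (Nr1i3, Esrra, Nr1h4 and Rxra), against 7.35% and 5.01% of all tested genes. Median-ratio rescaling called the same 4 and Nr1h3 lower. Hnf4a, Ncoa3, Nr1i3 and Esrra kept their direction under median-ratio rescaling, quantile normalization, a common sum and removal of the length trend. The sign of Nr3c1, Ncor1, Nr1h2, Rxrb, Thrb, Nr2f6, Nr2f2, Ncoa2, Rara, Nr2c1, Thra, Ppard and Nr2c2, none of them called, turned under at least 1 of these.

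**Figure D4:**
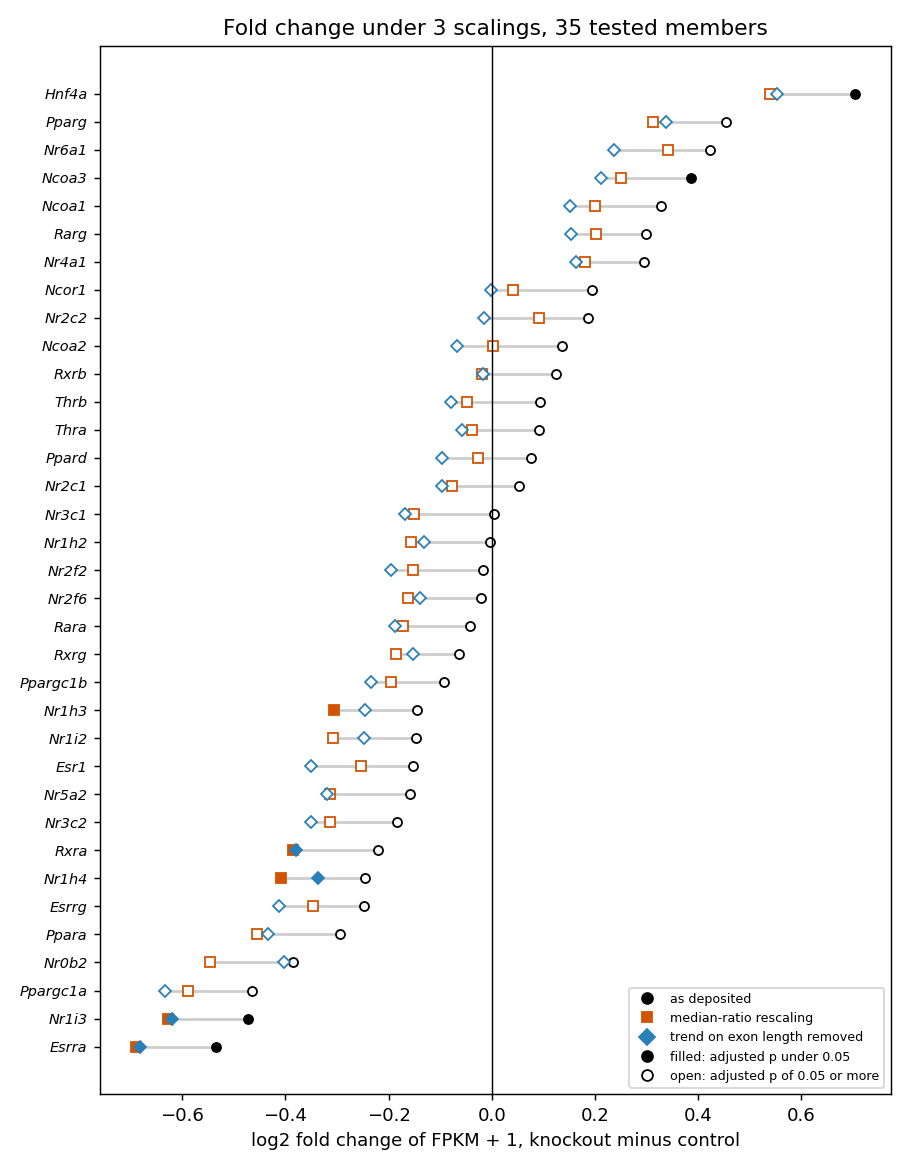
Fold change in log2(FPKM + 1), knockout minus control, of the 35 tested genes as deposited (circles), after median-ratio rescaling (squares) and with the trend on exon length removed (diamonds); filled symbols passed an adjusted p of 0.05 by limma. Both rescalings lie to the left of the deposited values; Nr1i3 and Esrra are filled in all 3, and Hnf4a and Ncoa3 only as deposited.

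Further coregulators and clock genes came from separate lists, and their counts stand against 13.9% and 2.61% of all tested genes that rose and fell. Of 24 other coregulator genes 23 were tested, and 3 rose (13%) and 0 fell (median 0.19), a share of rises near that of all tested genes. These were the chromatin remodeller Smarca4 (0.46 ± 0.09), the PGC-1 relative Pprc1 (0.44 ± 0.12) and the acetylase Crebbp (0.29 ± 0.08). After median-ratio rescaling 0 of the 23 were called higher and 0 lower. Of 12 tested clock genes 1 rose (8.33%) and 2 fell (16.7%), with Clock at 0.49 ± 0.08, Per3 at -0.77 ± 0.11 and Tef at -0.61 ± 0.07.

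Target genes were counted for receptors whose own transcript was not called, against 13.9% and 2.61% of all tested genes that rose and fell. For no target list, here or below, was the difference from all tested genes tested. Of 24 tested targets of PPAR-alpha 0 rose and 11 fell (45.8%) (median -0.29), with the thioesterase Acot3 (-2.47 ± 0.22) and the omega-hydroxylase Cyp4a14 (-1.40 ± 0.23) furthest down. Of 7 tested targets of PPAR-gamma 6 rose (85.7%) and 0 fell (median 1.13), led by the lipid droplet gene Cidea (2.65 ± 0.49) and lipoprotein lipase Lpl (2.32 ± 0.31). Of 12 tested LXR targets 5 rose (41.7%) and 0 fell (median 0.38), led by the desaturase Scd1 (3.11 ± 0.14) and fatty acid synthase Fasn (1.42 ± 0.14), which other regulators control too. Of 10 tested FXR targets 2 rose (20%) and 1 fell (10%) (median -0.11). This list was not split into genes that FXR raises and genes that it lowers, so its counts and median give no direction of receptor activity. The bile salt exporter Abcb11 (0.76 ± 0.15) rose, and the bile acid uptake carrier Slc10a1 (-1.19 ± 0.13) fell.

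Counts of the next 4 target lists also stand against 13.9% and 2.61% of all tested genes that rose and fell. CAR and PXR share many targets, and of 23 tested 8 rose (34.8%) and 1 fell (4.35%) (median 0.55), while Nr1i3 fell and Nr1i2 was not called. The glutathione transferases Gstm3 (3.85 ± 0.28) and Gsta1 (3.07 ± 0.21) moved most, and both are also known NRF2 targets. Gsta2, Gstm1 and Gstm2, of the same enzyme family, rose too, and close paralogs may share their fragments. Gsta1 and Cyp2c55, which also rose, averaged 0.152 and 0.239 FPKM in control livers and passed the filter only through knockout values. The gene that fell was Cyp2b9 (-1.58 ± 0.20). Of 13 tested HNF4-alpha targets 0 rose and 1 fell (7.69%) (median 0.01), namely transthyretin Ttr (-0.43 ± 0.09), while Hnf4a rose. Of 10 tested targets of ERR and PGC-1 1 rose (10%) and 2 fell (20%) (median -0.10). Citrate synthase Cs (0.62 ± 0.09) rose, and the gluconeogenic genes G6pc (-0.91 ± 0.16) and Pck1 (-0.79 ± 0.20) fell. Of 17 tested glucocorticoid receptor targets 1 rose (5.88%) and 5 fell (29.4%) (median -0.21), with the cell cycle inhibitor Cdkn1a (1.92 ± 0.41) higher and metallothionein Mt2 (-1.26 ± 0.14) lower.

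Pck1 and G6pc stand on both the glucocorticoid and the ERR and PGC-1 list, and Lrat is also a stellate cell marker. Acadm and Pdk4 are on both the PPAR-alpha and the ERR and PGC-1 list. Cyp7a1 is on the FXR and LXR lists, and Cyp8b1 on the FXR and HNF4-alpha lists. The glucocorticoid list shares Klf9 with the thyroid hormone list, Per1 with the clock genes and Dusp1 with the immediate-early genes. Fabp4 is counted both as a PPAR-gamma target and as an adipocyte marker. Ttr, Apoa1 and Apob are counted both as HNF4-alpha targets and as hepatocyte markers. The infiltrating macrophage, stellate cell and adipocyte markers given below rose in 7 of 7, 8 of 11 and 2 of 2 tested genes. Of all tested genes 13.9% rose. Several of these markers, given below, passed the filter only through knockout values. The 9 Kupffer cell markers went both ways, with 2 higher and 2 lower. The part of cell composition in the target values was not tested. Among 6 tested thyroid hormone receptor targets 2 rose (33.3%, against 13.9% of all tested genes) and 0 fell (against 2.61%), with a median of 0.64. These 2 were Gpd2 (0.68 ± 0.10) and malic enzyme Me1 (0.61 ± 0.10). Among 6 tested retinoic acid receptor targets 2 rose (33.3%, against 13.9% of all tested genes) and 0 fell (against 2.61%), with a median of 0.38. These 2 were transglutaminase Tgm2 (1.05 ± 0.14) and the retinol esterifier Lrat (0.46 ± 0.11). Adjusted p of the genes outside the receptor list that are said to rise or fall ran up to 0.0490 by limma. Per3, Tef, Acot3, Lpl, Scd1, Fasn, Slc10a1, Gstm3, Gsta1, Cs, Mt2 and Tgm2 were called in every limma fit that left out 1 mouse. Smarca4, Pprc1, Crebbp, Clock, Atf3, Cyp4a14, Cidea, Abcb11, Ttr, G6pc, Pck1, Cdkn1a, Gpd2, Me1, Lrat and Sulf2 each missed in at least 1 such fit, with adjusted p up to 0.138, and leaving out each of the 6 mice ended at least 1 of these calls. Gstm2 was called in every such fit, and Gsta2 missed in some (limma adjusted p up to 0.0891). For Gstm1, Cyp2c55 and Cyp2b9 these fits are not reported here.

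Markers of other cell types moved with genotype, and in bulk liver fewer cells of a type and less RNA per cell cannot be told apart. Counts of markers that rose or fell stand against 13.9% and 2.61% of all tested genes. The 10 hepatocyte markers summed to 35224 to 38631 FPKM in knockout livers and 46002 to 54435 FPKM in control livers, and 1 rose and 2 fell. Albumin made up most of that gap, at 22584 FPKM in knockout and 34484 FPKM in control livers on average, while Ttr also fell, Trf rose and the other markers were not called. The 8 infiltrating macrophage markers summed to 38.8 to 87.0 FPKM in knockout livers and 11.6 to 15.0 FPKM in control livers, and 7 of 7 tested rose. Ccr2, Cx3cr1, Itgax, Trem2 and Gpnmb averaged 0.153 to 0.449 FPKM in control livers, so they passed the filter only through knockout values. For genes this low in controls, being tested already required high knockout values, so the share that rose is partly set by the filter. The 11 stellate cell and fibroblast markers summed to 118 to 154 FPKM in knockout livers and 60.1 to 68.6 FPKM in control livers, and 8 rose. Col1a1, which rose, and Des, which was not called, averaged 0.410 and 0.924 FPKM in control livers and also passed only through knockout values. Sums of the infiltrating macrophage and of the stellate cell and fibroblast markers lay apart between the genotypes. The 9 Kupffer cell markers summed to 252 to 460.2 FPKM in knockout livers and 189.8 to 269 FPKM in control livers, with 2 higher and 2 lower. The 9 endothelial markers summed to 107 to 138 FPKM in knockout livers and 80.1 to 95.2 FPKM in control livers, and 3 of 9 rose (33.3%).

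The 6 cholangiocyte markers summed to 34.1 to 66.7 FPKM in knockout livers and 13.5 to 16.1 FPKM in control livers, but only Spp1, which macrophages also express, was tested. The defining keratins Krt19 and Krt7 were low, Krt19 at 0.366 FPKM in knockout and 0.352 FPKM in control livers and Krt7 at 0.0419 FPKM in knockout and 0.0626 FPKM in control livers. The 6 adipocyte markers summed to 6.81 to 14.1 FPKM in knockout livers and 1.61 to 1.89 FPKM in control livers, and 2 of 2 tested rose. Of these 2, Cfd averaged 6.57 FPKM in knockout and 0.160 FPKM in control livers, so it passed the filter only through knockout values. The defining adipocyte genes were near 0. Adipoq was at 0.0456 FPKM in knockout and 0 FPKM in control livers, and Plin1 at 0.0141 FPKM in knockout and 0.00456 FPKM in control livers. The 4 neutrophil markers summed to 3.05 to 9.09 FPKM in knockout livers and 1.23 to 2.39 FPKM in control livers, with Ly6g listed at 0 in all 6 livers. The 7 T and B cell markers summed to 2.28 to 4.79 FPKM in knockout livers and 1.48 to 2.06 FPKM in control livers, and 0 passed the filter. Pparg, Nr1h3, Rarb and Nr2f2 are also expressed in macrophages, stellate or endothelial cells, and the part of cell composition in the receptor values was not tested.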

How the data were processed

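Liver mRNA of 3 Acsm3 knockout and 3 control mice was sequenced, 1 library per mouse, grouped by the sample titles. The authors deposited FPKM per gene. Per the submitters' processing notes the tools were HISAT2 2.0.4, Bowtie2 2.2.6 and StringTie 1.3.0 with GRCm38; for strandedness and shared fragments the answer was not given in the sources used here. FPKM multiplied by exonic length (GENCODE) moved in steps of 1 fragment: 98.0 to 98.2% of values under 20 fragments came within 0.1 of a whole number, which gave the fragment totals.

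Here, limma 3.58.1 in R 4.3.3 (lmFit, eBayes with trend) was run on log2(FPKM + 1) for genes averaging 1 FPKM or more, with Benjamini-Hochberg adjustment over all of them and a threshold of 0.05; it was tested on simulated data. Alternatives were other pseudocounts and filters, median-ratio, quantile and common-sum scaling, removal of each library's trend on exon length, fits without trend, robust or with a replicate block, voom on recovered fragments, and leaving out each mouse. All 41 listed genes are named; from other lists the largest changes past the threshold are; 2 of those lists are not reported here. The members and lists were chosen with earlier results of these data known. Promoters and motifs were read with Python 3.11.15.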

Additional observations from a re-analysis of the deposited data

How the results depend on the processing

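As deposited, limma called 1532 genes higher and 287 lower, with 2 and 2 of the receptor and coregulator genes. The calls were 544 genes higher and 106 lower, with 0 and 2 of the receptor and coregulator genes with no filter, 848 genes higher and 260 lower, with 1 and 3 of the receptor and coregulator genes with a filter at 5 FPKM, 830 genes higher and 735 lower, with 0 and 5 of the receptor and coregulator genes after median-ratio rescaling, 752 genes higher and 603 lower, with 1 and 2 of the receptor and coregulator genes after quantile normalization, 2582 genes higher and 238 lower, with 4 and 2 of the receptor and coregulator genes with libraries set to a common sum, and 808 genes higher and 551 lower, with 0 and 4 of the receptor and coregulator genes with the length trend removed. The pseudocounts of 0.1 and 5, fits without a trend or robust, and voom on recovered fragments left these counts within 1.5 times. Fits that left out 1 mouse called 226 to 1968 genes higher and 55 to 282 lower, and 0 to 4 receptor and coregulator genes higher and 0 to 2 lower, with fewer mice in each; leaving out knockout 3 alone raised the higher calls. No call turned to the opposite direction. The median fold change of all tested genes was 0.13 as deposited, -0.030 after quantile normalization, 0.229 with a common sum and -0.002 with the length trend removed. Deviations of same-numbered mice correlated at 0.111, 0.092 and 0.187, and each mouse correlated best with its own number. Whether the numbers mark pairs was not tested, and the labels do not say. A fit with the replicate block called 1672 genes higher and 346 lower, with 2 and 2 of the receptor and coregulator genes. It changed no call among the 35 and ended those of Crebbp, Pck1 and Hnf4aos. With 1 FPKM, 2 kb of exon would hold 30.7 to 32.5 fragments in these libraries, which limits the low receptors. The cause of these differences was not tested.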

Other observations

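Some genes had the same order of mice in both genotypes. In 10 of 35 tested receptor and coregulator genes (28.6%) the 3 mice stood in the same order in knockout and control livers, against 24.3% of all tested genes. Nr2f6 and Rara were highest in mouse 1 and lowest in mouse 3 of both genotypes. Nr4a1 varied 8.85-fold among knockout livers and 5.51-fold among control livers. The labels do not say what the numbers stand for.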
